A study of Rattus norvegicus with 65 samples.

Results

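Circadian clock genes were examined in the hypothalamus of the rats of this study. The members were the rows of the deposited count table named Per1, Per2, Per3, Cry1, Cry2, Dbp, Nr1d1, Nr1d2, Arntl and Clock, 10 genes of 38513. All 10 passed the filter on low counts, which 21871 genes passed. All 65 libraries were used, and batches A and B were kept apart.

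Adult male Wistar rats, 9 to 10 weeks old, received a high-fat diet for 6 weeks and then underwent Roux-en-Y gastric bypass (RYGB, n = 14), a sham operation (n = 11), food restriction to the body weight course of RYGB (BWM, n = 7), or treatment with liraglutide at 0.4 mg/kg/day (n = 5), PYY3-36 at 0.1 mg/kg/day by minipump (n = 4), both drugs (n = 10) or saline (n = 8). A further group was labelled lean (n = 6), and its label gives no diet. The study also mentions a group on low-fat diet only, which the labels do not tie to the lean animals by name. BWM animals were the only ones described without free access to food. The abstract of the study lists the BWM group as sham plus body weight-matched, while its methods describe only the food restriction. Hypothalami were collected 4 weeks after the intervention, after 10 h of fasting, and 1 library was made per animal. Batches A and B were 2 experimental periods. P-values measure the spread between these animals. RYGB (11 in batch A and 3 in batch B), sham (5 and 6), saline (3 and 5) and PYY3-36 + liraglutide animals (5 and 5) were in both batches. BWM and lean animals were only in batch A, and liraglutide- and PYY3-36-treated animals only in batch B. The time of day at which tissue was collected is not given in the sources used here.

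The circadian clock is a feedback loop of transcription. CLOCK and BMAL1, the product of Arntl, bind E-boxes and switch on the Period and Cryptochrome genes, whose proteins then repress CLOCK and BMAL1. In a second loop the nuclear receptors NR1D1 and NR1D2 (REV-ERB alpha and beta) repress Arntl, and DBP acts on D-boxes of clock and output genes. In the hypothalamus the suprachiasmatic nucleus holds the master clock, set by light, and other hypothalamic nuclei run clocks that also follow feeding time. Transcripts of Period genes, Dbp and Nr1d1 therefore rise and fall over the day, with Arntl in the opposite phase.

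Counts on genes ran from 25913006 to 36539941 per library in batch A and from 20041010 to 35011146 in batch B. Per the labels, DNA fragments were about 285 bp long in batch A and 335 bp in batch B. In 12 libraries the summed level of 11 hypothalamus marker genes was at most 185 CPM (TMM-scaled counts relative to the library total), whereas it was at least 443 in the other 53, with a median of 1980. These 12 libraries came from 5 animals of batch A and 7 of batch B and from every group except RYGB. Among them were the libraries with the largest summed level of cortex markers in each batch (sham replicate 2 at 1889 CPM and saline replicate 4 at 1233 CPM) and of striatum markers (BWM replicate 1 at 4138 CPM and sham replicate 10 at 3728 CPM). BWM replicate 5 held 76751 CPM of anterior pituitary genes, against a batch median of 10.98 CPM. In this tissue of mixed cells, fewer cells of a type and less RNA per cell cannot be told apart. The results below include these libraries. The comparison of batches over all 4 shared groups, the comparisons within batches and the correlations between clock genes were repeated without the 12.

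Per length of exon, Dbp was the most abundant clock gene, at 104 ± 23.1 CPM per kb (SD, n = 65). Nr1d1 followed at 33.2 ± 5.76, Cry2 at 25.5 ± 5.29 and Nr1d2 at 24.3 ± 3.44 CPM per kb. Per3 (9.23 ± 4.59), Arntl (8.37 ± 1.88), Per1 (7.34 ± 3.22), Per2 (6.71 ± 2.99), Clock (5.74 ± 0.712) and Cry1 (5.71 ± 0.988) lay lower. Neighbours in this order from Cry2 to Nr1d2 and from Per3 to Cry1 differed by less than the larger of their SDs. The order pools both batches. Per3 (12.3), Per1 (9.3) and Per2 (8.52) were above Arntl (8.0 CPM per kb) in batch A. In batch B the Period genes were the lowest members (Per3 5.145, Per1 4.77 and Per2 4.31), below Clock (5.44 CPM per kb). Within batch A the Period genes had the highest coefficients of variation, at 28.8% for Per1, 32.6% for Per2 and 29.7% for Per3, against 13.4% (Clock) to 21.7% (Dbp) for the other members. Within batch B Per1 (35.4%) and Per3 (25.6%) were highest, whereas Per2 (14.3%) lay within the range of the others, from 7.71% for Clock to 24.4% for Arntl.

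**Figure D1:**
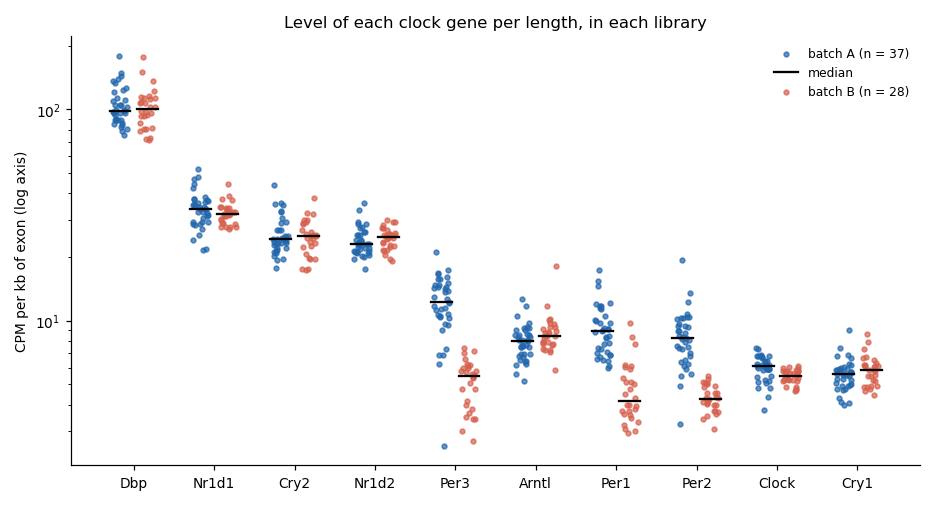
Level of the 10 clock genes in each library as CPM per kb of exon on a log axis, in order of the mean, with batch A (37 libraries) in blue, batch B (28 libraries) in red and black lines at the medians. Per1, Per2 and Per3 sat lower in batch B, while the medians of both batches lay close together for the other members.

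The Period genes encode the PER proteins that close the negative loop. In Rnor_6.0, Per1 lies on chromosome 10 from 55681761 to 55696557 on the plus strand, Per2 on chromosome 9 from 98555154 to 98597362 on the minus strand, and Per3 on chromosome 5 from 168088126 to 168123482 on the minus strand. The 250 bases before the annotated start of these genes are shown because the 3 genes moved together between batches, and that of Nr1d1, which did not, is set beside them. The sequences are those of RefSeq for the build GRCr8, 5′ to 3′ on the strand of the gene, at chr10:54304126-54304375 (plus strand), chr9:99496994-99497243, chr5:166777801-166778050 and chr10:84229455-84229704 (all 3 minus strand). Capitals mark matches to the E-box CACGTG, its variant CACGTT or the D-box TTATGTAA.

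Per1: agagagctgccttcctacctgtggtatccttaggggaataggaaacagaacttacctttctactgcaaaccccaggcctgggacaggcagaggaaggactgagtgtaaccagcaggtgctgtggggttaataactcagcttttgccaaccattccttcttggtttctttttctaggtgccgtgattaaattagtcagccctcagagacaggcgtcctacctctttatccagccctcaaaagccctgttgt
Per2: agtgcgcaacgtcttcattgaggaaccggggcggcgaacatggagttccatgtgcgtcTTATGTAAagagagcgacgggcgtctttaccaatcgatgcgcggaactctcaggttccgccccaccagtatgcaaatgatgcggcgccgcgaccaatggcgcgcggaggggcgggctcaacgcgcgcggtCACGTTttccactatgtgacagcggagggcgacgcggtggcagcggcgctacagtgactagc
Per3: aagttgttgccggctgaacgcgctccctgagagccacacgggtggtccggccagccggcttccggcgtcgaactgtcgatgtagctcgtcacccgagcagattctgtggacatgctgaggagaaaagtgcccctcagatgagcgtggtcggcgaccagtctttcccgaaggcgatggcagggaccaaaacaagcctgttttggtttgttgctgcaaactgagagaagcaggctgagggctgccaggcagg
Nr1d1: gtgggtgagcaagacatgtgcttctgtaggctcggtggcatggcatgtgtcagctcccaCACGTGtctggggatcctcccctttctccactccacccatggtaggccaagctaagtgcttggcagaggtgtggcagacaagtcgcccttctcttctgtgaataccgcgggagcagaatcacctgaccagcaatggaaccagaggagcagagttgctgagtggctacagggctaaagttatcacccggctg

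These letters were searched on both strands in 250 bases, together with the ROR element TAGGTCA, the second D-box TTACGTAA and the cyclic AMP element TGACGTCA. An entry was found for 9 of the 10 members. The window of Per2 held CACGTT 62 bases and TTATGTAA 192 bases before the start. Nr1d1 had 2 annotated starts. CACGTG lay 191 bases before the one shown, and CACGTT 174 bases before the other. Cry2 held CACGTT, and Arntl, listed as Bmal1, held TAGGTCA 16 bases before its start. None of these motifs was found in the windows of Per1, Per3, Dbp, Nr1d2 or Clock. Of 33469 windows of this length, 5.59% held CACGTG, 4.07% CACGTT, 0.932% a D-box, 2.26% TAGGTCA and 1.59% TGACGTCA. A match describes the letters only, and a missing match says nothing of sites elsewhere.

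Per1, Per2 and Per3 were all lower in batch B than in batch A, and the other 7 clock genes were not called. In batch A, Per1 ranged from 49.9 to 146 CPM (median 75.1, n = 37), and in batch B from 24.6 to 81.5 CPM (median 34.9, n = 28). Per2 ranged from 20.8 to 124 CPM (median 52.8) in batch A and from 19.7 to 35.0 CPM (median 27.3) in batch B. Per3 ranged from 13.7 to 113 CPM (median 65.3) in batch A and from 14.3 to 39.6 CPM (median 29.3) in batch B. Every library of batch B was thus below the median of batch A for Per2 and Per3, and 27 of 28 were for Per1, the exception being saline replicate 4. Conversely, 35 of the 37 libraries of batch A were above the highest of batch B for Per2, 32 for Per3 and 13 for Per1.

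**Figure D2:**
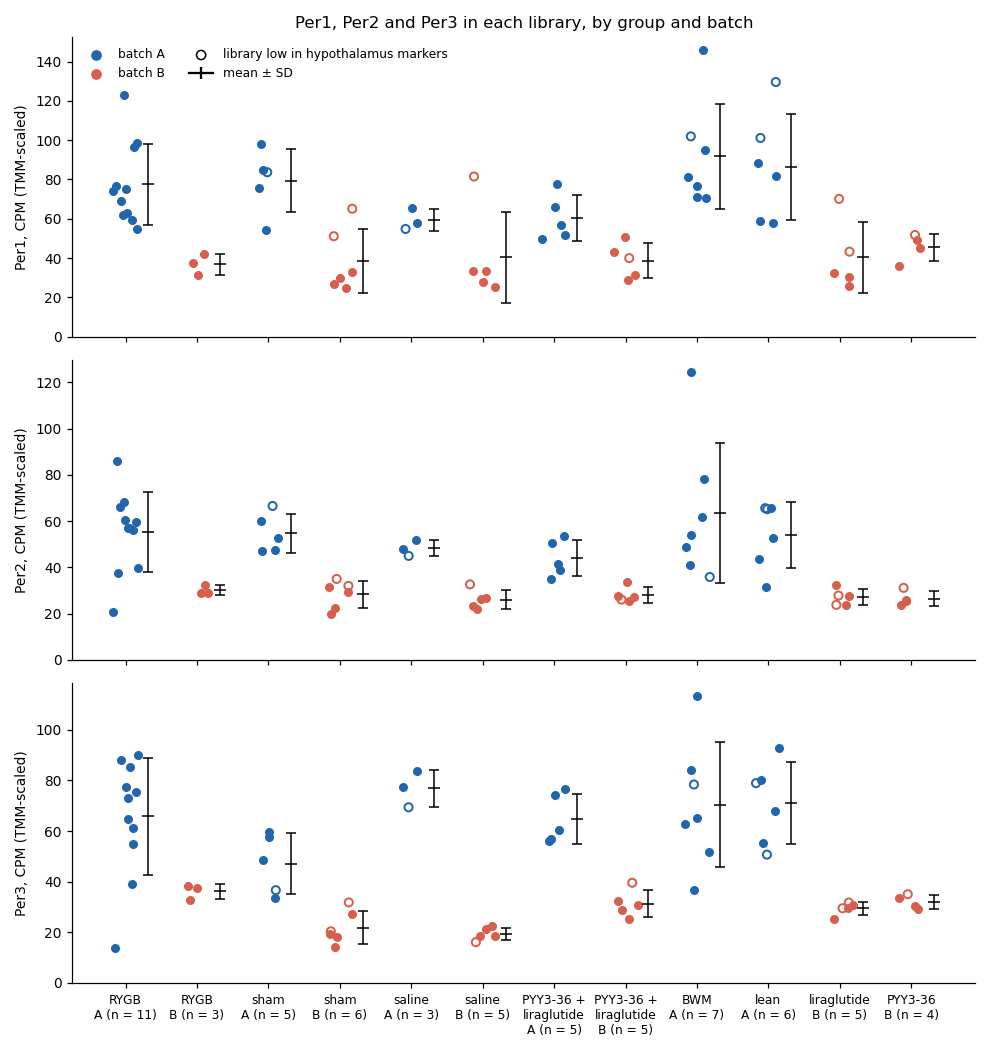
Per1, Per2 and Per3 in each library, as TMM-scaled CPM on axes that start at 0, by group and batch (blue, batch A; red, batch B), with the mean ± SD beside the points. Open circles are the 12 libraries low in hypothalamus markers; for Per2 and Per3 no library of batch B reached the median of batch A.

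Batches were compared as the mean difference over the 4 groups present in both, with 24 libraries in batch A and 19 in batch B. Per1 averaged 72.05 ± 18.3 CPM (SD) in batch A and 38.8 ± 14.7 CPM in batch B. The log2 fold change was -0.83 ± 0.14 (SE), 1.77-fold lower (edgeR quasi-likelihood test, adjusted p = 3.04e-06). Per2 averaged 51.95 ± 13.4 and 27.9 ± 4.30 CPM and changed by -0.84 ± 0.12 (1.79-fold lower, edgeR adjusted p = 1.48e-07). Per3 averaged 63.1 ± 19.03 and 25.98 ± 7.96 CPM and changed by -1.25 ± 0.13 (2.38-fold lower, edgeR adjusted p = 7.18e-11). Of the clock genes, 3 of 10 were thus called, all of them lower. Among all genes tested 41.6% were called, 22.1% as lower, and 5.07% as lower with a log2 fold change under -1, which of the members only Per3 had. DESeq2 called the same 3 members. Without the 12 libraries low in hypothalamus markers the same 3 were called, at -1.05 ± 0.11 for Per1, -0.89 ± 0.13 for Per2 and -1.34 ± 0.15 for Per3, while 22.6% of all genes were called lower.

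Within groups, Per2 differed between batches in each of the 4. Its log2 fold change was -0.88 ± 0.25 in RYGB-treated (edgeR adjusted p = 0.0367), -0.95 ± 0.22 in sham-treated (0.00199), -0.89 ± 0.26 in saline-treated (0.0195) and -0.65 ± 0.23 in PYY3-36 + liraglutide-treated animals (0.0472). Per3 was called in 3 groups, with the largest value in saline-treated animals. There it was 83.9, 77.2 and 69.4 CPM in batch A and 16.1, 22.3, 18.7, 18.4 and 21.3 CPM in batch B, a log2 fold change of -1.99 ± 0.29 (edgeR adjusted p = 1.16e-05). Values of Per3 were -1.11 ± 0.24 in sham-treated (edgeR adjusted p = 0.00101) and -1.05 ± 0.25 in PYY3-36 + liraglutide-treated animals (0.00423), and -0.86 ± 0.27 in RYGB-treated ones, which was not called (0.0638). Libraries of both batches did not overlap for Per2 and Per3 in sham-, saline- and PYY3-36 + liraglutide-treated animals, where 3.6%, 13.5% and 9.14% of all genes had every library of batch B below batch A. They overlapped in RYGB-treated ones, where replicate 11 of batch A was lowest at 20.8 CPM of Per2 and 13.7 CPM of Per3. That library also had the largest summed levels of oligodendrocyte markers (44705 CPM) and of ribosomal protein genes (31611 CPM) in batch A, and their part in its values was not tested.

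Per1 was called lower in 2 of the 4 groups. In RYGB-treated animals it was 31.3, 37.6 and 41.9 CPM in batch B, below all 11 libraries of batch A (55.0 to 123 CPM, median 74.3), which held for 1.87% of all genes. The log2 fold change was -1.07 ± 0.29 (edgeR adjusted p = 0.0264), and in sham-treated animals it was -1.05 ± 0.25 (0.00296). In saline-treated (-0.55 ± 0.30, adjusted p = 0.211) and PYY3-36 + liraglutide-treated animals (-0.64 ± 0.27, 0.0889) Per1 did not pass. Saline replicate 4 had 81.5 CPM of Per1 where the other 4 saline libraries of batch B had 25.1 to 33.7, and it was among the 12 libraries low in hypothalamus markers. The clock genes called lower were 2 of 10 in RYGB (2.76% of all genes), 3 of 10 in sham (11.1%), 2 of 10 in saline (7.71%) and 2 of 10 in PYY3-36 + liraglutide (8.51%).

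**Figure D3:**
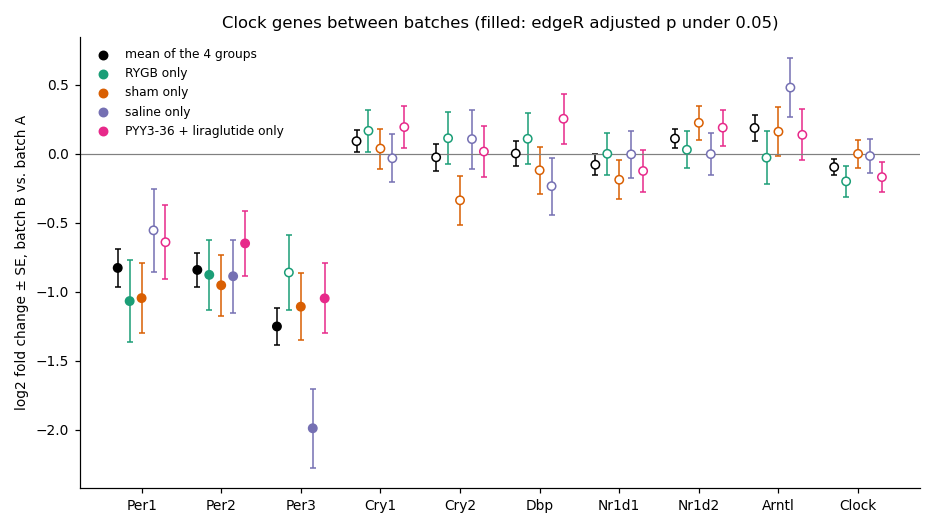
Log2 fold change ± SE of each clock gene between batch B and batch A, over the mean of the 4 shared groups (black) and within each group (colours); filled points passed an edgeR adjusted p of 0.05. All points of Per1, Per2 and Per3 lay at -0.55 or below; those of Clock and Nr1d1 were also all below 0, but none of the other 7 members was filled over the mean of the groups.

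Groups present in 1 batch only were set beside the shared groups of that batch, in which Per3 ran from 14.3 to 39.6 CPM in batch B and from 13.7 to 90.0 CPM in batch A. Per3 was 30.9, 25.4, 31.8, 29.5 and 29.8 CPM in the liraglutide-treated animals of batch B. It was 30.5, 35.1, 29.0 and 33.4 CPM in the PYY3-36-treated animals. In batch A it ran from 36.9 to 113 CPM in BWM (median 65.3, n = 7) and from 50.7 to 92.9 CPM in lean animals (median 73.4, n = 6). All liraglutide- and PYY3-36-treated animals were thus within the range of the shared groups for Per3, while the highest BWM and lean animals were above it. The highest Per1 (146 CPM) and Per2 (124 CPM) of batch A were both in BWM replicate 5, where the shared groups reached 123 and 86.2 CPM. This is the library with 76751 CPM of anterior pituitary genes. The next BWM animals had 102 CPM of Per1 and 78.1 CPM of Per2, within the range of the shared groups. Groups present in 1 batch only entered no comparison of batches, as batch and group cannot be told apart in them.

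The other parts of the loop were close in both batches. The log2 fold change of Clock was -0.10 ± 0.06 and that of Arntl, its partner, 0.19 ± 0.10. The Cryptochromes, partners of the PER proteins, changed by 0.09 ± 0.08 (Cry1) and -0.03 ± 0.10 (Cry2). Nr1d1 and Nr1d2, the repressors of Arntl, changed by -0.08 ± 0.08 and 0.11 ± 0.07, and Dbp by 0.00 ± 0.09. The smallest edgeR adjusted p of these 7 was 0.112, for Arntl. Arntl changed by 0.05 ± 0.08 without the 12 libraries, and the smallest edgeR adjusted p was 0.0905, for Clock (-0.13 ± 0.06). Clock was below the median of batch A (61.65 CPM) in 27 of 28 libraries of batch B, whose median was 55.3 CPM, over all groups of each batch.

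Other measures also differed between batches. Genes with longer exon sequence were lower in batch B more often. Among the 4374 genes tested with at least 5054 bases of exon, which include Per1, Per2, Per3 and Clock, the median log2 fold change was -0.17 and 37.3% were called lower. Among the 4376 genes with at most 1310 bases these values were 0.16 and 13.3%. Of 83 rows of ribosomal protein genes, 62 were higher and 0 lower in batch B. Blood markers were higher in 3 of 3 and endothelial markers in 3 of 3. Of all genes, 19.5% were called higher. The summed meningeal markers had a median of 359 CPM in batch A and 102.7 CPM in batch B over all groups. This median was lower in batch B in RYGB- (309 and 92.17 CPM) and PYY3-36 + liraglutide-treated animals (437.6 and 53.16 CPM). It was higher in sham- (44.76 and 107.1 CPM) and saline-treated ones (65.6 and 124.2 CPM). The summed oligodendrocyte markers had a median of 13780 CPM (6996 to 44705) in batch A and 22220 CPM (9148 to 54688) in batch B, with 2 of 5 markers called higher. Mitochondrial rRNA and tRNA took 0.475% to 1.92% of counts in batch A and 0.881% to 3.19% in batch B. The part of these measures in the Period difference was not tested.

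Genes around the core loop did not move as 1 block. Of 13 other transcription factors and regulators of the clock, 1 was higher and 2 were lower in batch B (median log2 fold change 0.05, against -0.02 over all genes). Rora, an activator of Arntl, was higher by 0.51 ± 0.16 over the 4 groups (edgeR adjusted p = 0.00828). Within groups it was called only in saline-treated animals (1.43 ± 0.38, edgeR adjusted p = 0.00928), with 0.46 ± 0.31 in RYGB-, -0.06 ± 0.30 in sham- and 0.22 ± 0.31 in PYY3-36 + liraglutide-treated ones. Arntl2, a paralog of Arntl, was lower by -0.77 ± 0.21 (0.00242) and Timeless by -0.55 ± 0.19 (0.0154). Of the genes of clock protein turnover, the kinase Gsk3b was higher by 0.15 ± 0.06 (edgeR adjusted p = 0.0238). All 4 clock output genes were higher, as 19.5% of all genes were, namely Noct, a phosphatase known to cycle (0.34 ± 0.11, edgeR adjusted p = 0.0093), Gm2a (0.28 ± 0.07, 0.000699), Nampt, the enzyme of NAD salvage (0.22 ± 0.08, 0.0174), and Wee1, a cell cycle kinase (0.21 ± 0.07, 0.0108). Of 11 genes of the suprachiasmatic nucleus, 0 were called by edgeR and 0 had an unadjusted p under 0.05.

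Per1 is also a target of the glucocorticoid receptor and of signals that induce immediate early genes, so both lists were described. Of 10 glucocorticoid response genes, 5 were lower and 0 higher in batch B (22.1% and 19.5% of all genes), with a median log2 fold change of -0.42. The 4 with the smallest adjusted p were Zbtb16 (-1.37 ± 0.24, edgeR adjusted p = 8.01e-06), Pdk4 (-0.80 ± 0.20, 0.000834), Errfi1 (-0.46 ± 0.12, 0.00111) and Sgk1 (-0.59 ± 0.21, 0.0228). Of 10 immediate early genes, 0 were called by edgeR and 0 had an unadjusted p under 0.05. The cold-inducible RNA-binding genes Cirbp (-0.31 ± 0.07, edgeR adjusted p = 0.000255) and Rbm3 (-0.34 ± 0.08, 0.000736) were lower, and the chaperone genes Hspa8 (0.23 ± 0.07, 0.00898) and Hsph1 (0.21 ± 0.09, 0.0459) were higher. Of the genes named from the lists around the clock, not all had the same sign in the 4 groups. Besides Rora, the log2 fold change turned in saline-treated animals for Wee1 (-0.03), Sgk1 (0.34) and Errfi1 (0.03), and in sham-treated animals for Cirbp (0.03) and Hspa8 (-0.06). Without the 12 libraries 8 of the 10 glucocorticoid response genes were lower (22.6% of all genes), and the counts of the other lists stayed as they were.

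Surgery, food restriction and hormone treatment were then compared with their controls within each batch. No clock gene was called by edgeR in any of the 11 comparisons, DESeq2 also called 0 in each, and edgeR called 0 in each without the 12 libraries low in hypothalamus markers. Without these 12, the share of all genes called was 3.06% for RYGB vs. sham in batch A and 0% in batch B. It was then 5.85% for BWM vs. sham, 0.334% for RYGB vs. BWM and at most 0.0183% in the other comparisons. With all libraries the share was 8.64% for RYGB vs. sham in batch A and 2.74% in batch B. For BWM vs. sham it was 5.28%, for RYGB vs. BWM 0.197% and for lean vs. sham 0.0686%. It was 0% and 0.0137% for PYY3-36 + liraglutide vs. saline in batches A and B, 0.00457% for PYY3-36, 0.00914% for liraglutide, and 0% and 0.0229% for sham vs. saline. The comparisons with sham share their sham animals, and those with saline share their saline animals. At an unadjusted p under 0.05 there were 3 members for RYGB vs. sham in batch A (25.5% of all genes) and 1 in batch B (21.8%), 1 for BWM (19.6%), 0 for RYGB vs. BWM (8.5%) and 2 for lean animals (15.3%). There were 0 and 2 for PYY3-36 + liraglutide (0.727% and 5.88%), 1 for PYY3-36 (10.1%), 2 for liraglutide (3.56%), and 1 and 1 for sham vs. saline (14.3% and 9.5%).

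**Figure D4:**
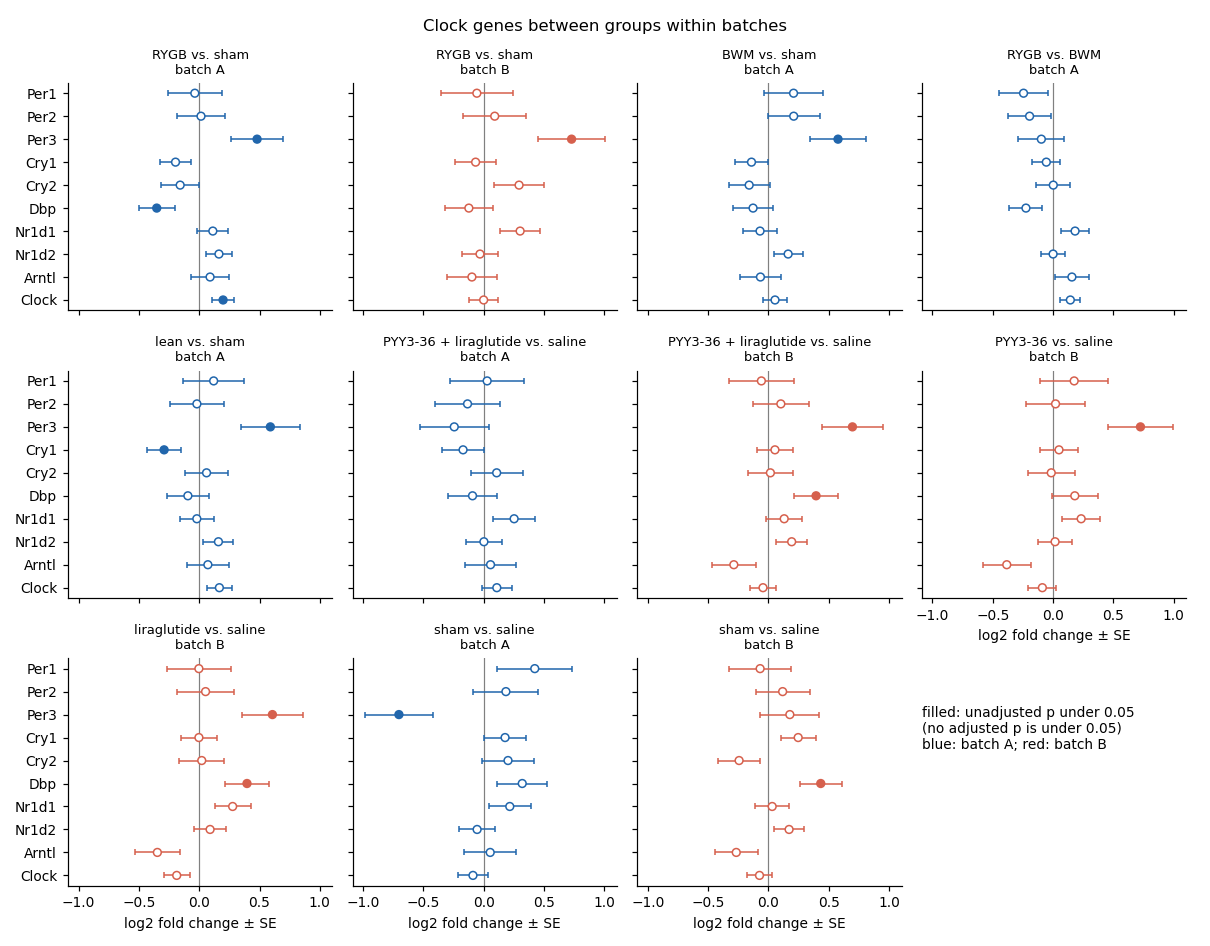
Log2 fold change ± SE of each clock gene in the 11 comparisons within batches (blue, batch A; red, batch B). Filled points had an unadjusted p under 0.05, and no point passed after adjustment; Per3 lay to the right of 0 in 8 comparisons.

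With all libraries, Per3 had an unadjusted p under 0.05 in 8 of the 11 comparisons, more than any other member. These comparisons reuse the same sham- and saline-treated animals, so they are not independent. Neither this count without the 12 libraries nor the share of all genes that reach it is given here. In batch A, sham-treated animals had 59.8, 36.7, 48.4, 33.4 and 57.6 CPM. RYGB-treated animals had 13.7 to 90.0 CPM (median 73.2, n = 11), and 8 of them were above the highest sham-treated one. The log2 fold change was 0.48 ± 0.22 (edgeR adjusted p = 0.153, unadjusted 0.0324). Without RYGB replicate 11, the lowest library, it was 0.59 and passed (edgeR adjusted p = 0.0182). In batch B, RYGB-treated animals had 37.4, 33.0 and 38.3 CPM and sham-treated ones 14.3 to 31.8 CPM (median 19.9, n = 6), so that the groups did not overlap, as 7.54% of all genes did not in this direction. The log2 fold change there was 0.73 ± 0.28 (edgeR adjusted p = 0.111, unadjusted 0.0109). It passed when batch B was fitted on its own (0.75, edgeR adjusted p = 0.00512), and an additive model with group and batch gave 0.51 over both batches (0.0457). Without the 12 libraries the values were 0.41 ± 0.25 in batch A and 0.87 ± 0.32 in batch B (edgeR adjusted p = 0.341 and 0.201). The difference between both batches' values, 0.25 ± 0.35, did not pass (edgeR adjusted p = 0.861).

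Against the same 5 sham-treated animals of batch A, Per3 differed by 0.58 ± 0.24 in BWM (edgeR adjusted p = 0.144) and by 0.59 ± 0.24 in lean animals (0.231). These values were 0.47 ± 0.27 and 0.58 ± 0.29 without the 12 libraries (edgeR adjusted p = 0.338 and 0.373). RYGB and BWM animals differed by -0.10 ± 0.19 (edgeR adjusted p = 0.912). With the 3 saline-treated animals of batch A (83.9, 77.2 and 69.4 CPM) as control, RYGB-treated animals had -0.22 ± 0.25 and BWM animals -0.13 ± 0.27, the opposite sign to the comparison with sham. In batch B RYGB-treated animals differed from saline by 0.90 ± 0.29 (edgeR adjusted p = 0.421), with the same sign as against sham. All 5 sham-treated animals of batch A were below all 3 saline-treated ones (4.08% of all genes), a log2 fold change of -0.70 ± 0.29 (edgeR adjusted p = 0.269). In batch B sham and saline differed by 0.18 ± 0.24 (edgeR adjusted p = 0.83), or by -0.03 ± 0.30 without the 12 libraries (0.99), and the difference between batches of 0.88 ± 0.38 did not pass (0.363).

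In batch B, saline-treated animals had the lowest mean of Per3, 19.4 ± 2.48 CPM (SD, n = 5). All 4 PYY3-36-treated, all 5 liraglutide-treated and all 5 PYY3-36 + liraglutide-treated animals were above the highest saline-treated one, at 22.3 CPM. Of all genes, 2.53%, 0.434% and 0.485% had such an order with PYY3-36, liraglutide and the combination. The log2 fold changes against these same saline-treated animals were 0.72 ± 0.27 for PYY3-36, 0.61 ± 0.25 for liraglutide and 0.70 ± 0.25 for the combination (edgeR adjusted p = 0.465, 1 and 0.834). They were 0.62 ± 0.32, 0.51 ± 0.32 and 0.51 ± 0.30 without the 12 libraries (edgeR adjusted p = 0.751, 0.925 and 0.719). In batch A the combination was 60.6, 74.1, 56.1, 56.8 and 76.6 CPM and differed from saline by -0.25 ± 0.29 (edgeR adjusted p = 1). The difference between batches of 0.94 ± 0.38 did not pass (edgeR adjusted p = 1, unadjusted 0.0169).

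Dbp, an output factor of the clock, lies on chromosome 1 from 101687896 to 101692845. In batch A its level was 125 to 209 CPM in RYGB-treated (median 159, n = 11) and 173 to 240 CPM in sham-treated animals (median 200.2, n = 5), with overlap. The log2 fold change was -0.35 ± 0.15 (edgeR adjusted p = 0.126), and in batch B it was -0.12 ± 0.20 (0.77). Without the 12 libraries these values were -0.38 ± 0.12 and 0.24 ± 0.16 (edgeR adjusted p = 0.0648 and 0.452), so that the sign in batch B turned. In batch B saline-treated animals were lowest, at 119 to 187 CPM (median 131). Dbp was 163 to 192 CPM with the combination (log2 fold change 0.39 ± 0.18, edgeR adjusted p = 0.834), 135 to 227 CPM with liraglutide (0.40 ± 0.18, 1) and 135 to 179 CPM with PYY3-36 (0.18 ± 0.19, 0.717). Sham-treated animals of batch B differed from saline by 0.43 ± 0.17 (edgeR adjusted p = 0.429), and 2 of their 6 libraries, replicates 6 and 10, were among the 12. Sham and saline differed by 0.02 ± 0.15 without the 12 libraries (edgeR adjusted p = 0.985). Liraglutide then differed from saline by 0.18 ± 0.16, the combination by 0.36 ± 0.15 and PYY3-36 by 0.21 ± 0.16 (edgeR adjusted p = 0.925, 0.653 and 0.756).

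Clock, which encodes the partner of BMAL1, lies on chromosome 14 from 34418226 to 34502218. It was 44.0 to 74.9 CPM in the RYGB-treated (median 62.4) and 48.7 to 60.5 CPM in the sham-treated animals of batch A (median 55.6), a log2 fold change of 0.20 ± 0.09 (edgeR adjusted p = 0.167). Without RYGB replicate 11 it was 0.24 (edgeR adjusted p = 0.0494), and in batch B it was 0.00 ± 0.12 (0.997). Clock differed by 0.16 ± 0.10 in batch A and 0.08 ± 0.13 in batch B when the 12 libraries were left out (edgeR adjusted p = 0.365 and 0.819). Arntl (chromosome 1, 178039002 to 178137469) had its largest difference with PYY3-36 vs. saline in batch B, with 22.8 to 27.95 CPM against 24.4 to 57.1 CPM (-0.38 ± 0.20, edgeR adjusted p = 0.503). Saline replicate 4 had 57.1 CPM of Arntl where the other saline libraries of batch B had 24.4 to 30.3. Without this library the difference was -0.11 (edgeR adjusted p = 0.855), and without the 12 it was -0.12 ± 0.17 (0.858). The largest difference of Arntl was then that of RYGB vs. BWM, 0.33 ± 0.11 (edgeR adjusted p = 0.203), which was 0.16 ± 0.14 with all libraries.

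Of the negative limb, Per1 and Per2 had no unadjusted p under 0.05 in the 11 comparisons, and their largest log2 fold change was 0.42 ± 0.31, for Per1 in sham vs. saline in batch A. With the 12 libraries left out it was 0.54 ± 0.23, for Per1 with PYY3-36 vs. saline (edgeR adjusted p = 0.751), and Per1 in RYGB vs. sham of batch B turned from -0.06 ± 0.30 to 0.37 ± 0.23 (0.429). Cry1 (chromosome 7, 24534593 to 24634098) was 14.1 to 16.7 CPM in lean and 16.6 to 21.8 CPM in sham-treated animals, with -0.29 ± 0.14 (edgeR adjusted p = 0.323, and -0.30 ± 0.16 without the 12, 0.405). Cry2 (chromosome 3, 81314151 to 81344143) did not pass in any comparison, with values between -0.24 and 0.29. Without the 12 libraries they lay between -0.33 and 0.56, the highest being RYGB vs. sham in batch B (0.56 ± 0.15, edgeR adjusted p = 0.123). Nr1d1 (chromosome 10, 86683875 to 86690815) was 87.6 to 96.0 CPM in RYGB-treated and 70.4 to 88.0 CPM in sham-treated animals of batch B (0.30 ± 0.17, edgeR adjusted p = 0.281, and 0.36 ± 0.16 without the 12, 0.271). Nr1d2 (chromosome 15, 8730871 to 8757165) lay between -0.06 and 0.19 in all 11, and between -0.02 and 0.17 without the 12 libraries. No clock gene was called by edgeR for a difference between batches of RYGB vs. sham, PYY3-36 + liraglutide vs. saline or sham vs. saline, as 0%, 0% and 0.00457% of all genes were, and DESeq2 called 0 as well. At an unadjusted p under 0.05 there were 0, 1 and 1 members (10.4%, 3.25% and 11% of all genes), and Per3 was the 1 both times.

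Some genes of the wider lists were called within batches. Rorb, which competes for the elements bound by NR1D1, was higher in RYGB-treated than sham-treated animals of batch B (0.82 ± 0.24, edgeR adjusted p = 0.0462). Of glucocorticoid response genes, Pdk4 was higher with RYGB in batch A (1.14 ± 0.33, edgeR adjusted p = 0.027) and Errfi1 in BWM (0.81 ± 0.21, 0.0163). Hspa8 was lower with RYGB in batch A (-0.41 ± 0.12, edgeR adjusted p = 0.023). All 8 rows of meningeal markers (7 genes) were called higher in RYGB-treated and in BWM animals of batch A than in sham-treated ones, with median log2 fold changes of 3.48 and 3.73, and 5 of 7 anterior pituitary genes were called higher in BWM animals. The summed level of anterior pituitary genes was 76751 CPM in BWM replicate 5. Its median was 12.66 CPM in BWM and 6.36 CPM in sham-treated animals of batch A. The part of both marker lists in the values above was not tested. Without the 12 libraries Errfi1 (0.98 ± 0.25, edgeR adjusted p = 0.0162) still passed, whereas Rorb (0.71 ± 0.25, 0.188), Pdk4 (1.04 ± 0.37, 0.0958) and Hspa8 (-0.38 ± 0.12, 0.0641) did not. Of all genes, 3.06% and 0% were then called for RYGB vs. sham in batches A and B, and 5.85% for BWM vs. sham.

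Clock genes were also compared with each other across animals, as deviations of log2 CPM from the mean of the library's group and batch. All 45 pairs were computed in each batch, with Pearson's r, Spearman's rho and 100000 permutations within groups, adjusted over 180 values. In the 37 libraries of batch A, r ranged from -0.172 to 0.62 (median 0.314), and 4 pairs passed with both coefficients. In the 28 libraries of batch B it ranged from -0.372 to 0.887 (median 0.327), and 6 pairs passed. The share of all gene pairs that would pass was not computed. All genes of a library share its composition and depth, so these counts are not particular to clock genes. Per1 and Cry2 passed in both batches, with r = 0.492 and rho = 0.545 in batch A (permutation test, adjusted p = 0.0496 and 0.0267) and r = 0.887 and rho = 0.876 in batch B (0.0009 for both, from the smallest p the permutations can give, 1e-05). Leaving out the 2 libraries farthest in Per1 gave r = 0.456 and 0.853. Over all 65 libraries, Cry2 ranked 26 of 21870 genes by its r with Per1, whereas Per1 ranked 998 by its r with Cry2. The libraries low in hypothalamus markers stand apart, and without them the pair had r = 0.486 (n = 32) and 0.599 (n = 21) and no longer passed (permutation test, adjusted p = 0.104 and 0.128).

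Without those libraries, 1 pair passed in batch A and 0 in batch B. None of the 4 and 6 pairs that passed with all libraries was among them. The pair was Per2 and Cry1, which had not passed with all 37 libraries (r = 0.62 and rho = 0.444, permutation test, adjusted p = 0.0189 and 0.0534), and now had r = 0.73 and rho = 0.601 (n = 32, permutation test, adjusted p = 0.0126 and 0.0468), and r = 0.576 without the 2 libraries farthest in Per2. Per1 and Per2 had r = 0.65 and rho = 0.577 (adjusted p = 0.0324 and 0.0581, permutation test). Per3 passed with no other member in either batch, and with Per2 its r in batch A fell from 0.479 to 0.0253 when the 2 libraries farthest in Per2 were left out. Nr1d1 and Arntl, which cycle in opposite phase, had r = 0.455 and rho = 0.564 in batch B (permutation test, adjusted p = 0.0387 and 0.0267), and r = 0.516 without the 7 libraries (0.122).

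**Figure D5:**
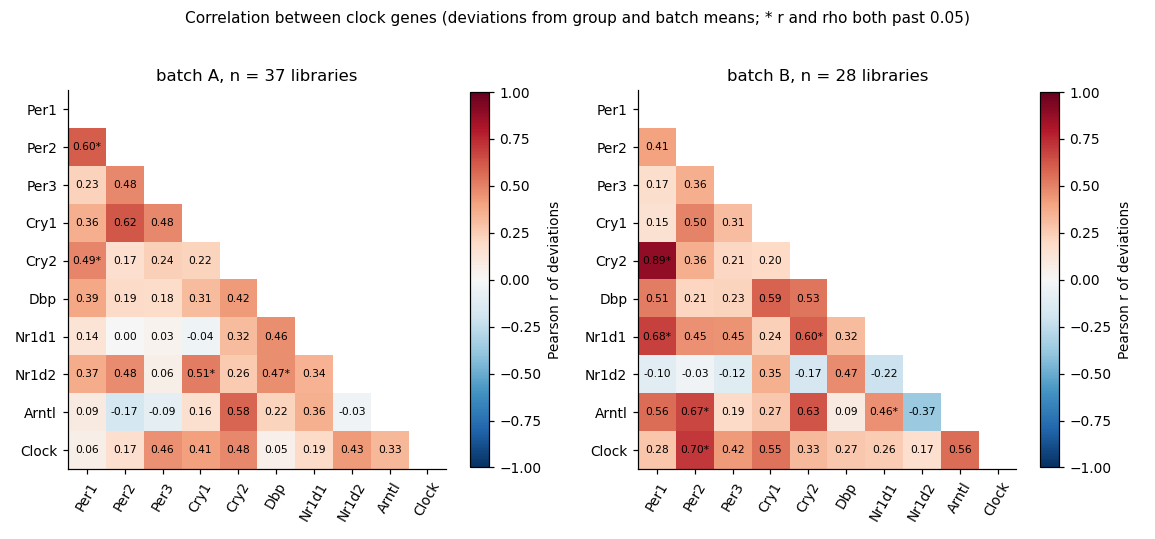
Pearson's r between clock genes across the libraries of batch A (left) and batch B (right), on deviations from the mean of each group and batch; asterisks mark pairs where r and rho both passed an adjusted p of 0.05. Most values were above 0, and Per1 with Cry2 is the only pair marked in both.

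Over all 65 libraries, the genes whose deviations were most like those of Per1 were Arc (r = 0.785), Egr1 (0.755) and Usp2 (0.754). For Per3 they were Baz2a (0.915), Srrm2 (0.855) and Ankle2 (0.844), and for Per2 they were Ap1s3 (0.637), Baz1b (0.614) and Sorl1 (0.611). For Cry2 they were Lmtk2 (0.919), Zfp365 (0.915) and Cx3cl1 (0.907), and for Cry1 they were Ddx5 (0.68), Trim35 (0.626) and Ythdc1 (0.622). Clock was most like Pcmtd2 (0.874), Atrx (0.862) and Ythdc2 (0.821), and its partner Arntl most like Tmem132a (0.748), Trim9 (0.726) and Sept11 (0.722). LOC108351665 (0.745) and Foxp1 (0.74) were among the 3 most like Dbp. Cd34 (0.649), Frmd6 (0.647) and Hlf (0.642), which is a paralog of Dbp, were most like Nr1d1, and Herpud2 (0.648), Rsbn1 (0.648) and Spopl (0.644) most like Nr1d2. None of these genes was 1 of the 10 members. Points in these correlations share the composition and depth of a library, so the values describe these libraries only, and they were not computed without the 12.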

How the data were processed

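Poly-A RNA of the hypothalamus of 65 animals was sequenced from 1 end with a stranded protocol, 1 library per animal. Per the submitters' processing notes and the methods of the study, reads were demultiplexed with bcl2fastq 2.20.0.422, trimmed with cutadapt (1.16 in the notes, further versions in the methods), aligned to Rnor_6.0 with STAR 2.7.2b and counted per gene with featureCounts 1.6.4. The authors deposited estimated counts, since reads on several places or genes were shared as fractions, and 30.3% of the values above 0 were not whole (tolerance 1e-06).

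Counts were rounded, and 21871 of 38513 genes passed edgeR's filter (minimum count 10, total 15). Means of 12 combinations of group and batch were fitted with the quasi-likelihood test of edgeR 4.0.16 (R 4.3.3, limma 3.58.1), TMM scaling and Benjamini-Hochberg adjustment over all genes tested, with a threshold of 0.05. CPM are TMM-scaled, and correlations used log2(CPM + 0.5) with ranks from scipy 1.17.1 and permutations drawn in numpy 2.4.6 (pandas 2.3.3, Python 3.11.15). Figures were drawn with matplotlib 3.10.9. The test was checked on simulated data. Alternatives were DESeq2 1.42.0, other scalings and filters, an additive batch term, separate fits per batch, a replicate block and each library left out.

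Members and gene lists were chosen with earlier results of these data known, and a split by hypothalamus markers (summed CPM under 200) was added after the data were seen. Named genes were the members, the 3 genes most like each, and at most 4 genes called per list and comparison, by smallest adjusted p. A few genes that this rule names are not reported here. Sequences were matched by gene identifier in a RefSeq table of GRCr8, while coordinates of genes are those of the deposited table, Rnor_6.0. Same-numbered PYY3-36 + liraglutide and saline libraries of batch A deviated together in all 3 pairs (r = 0.114 to 0.301), a hint from the data that the numbers pair them. The values printed come from the fit without a block, and the block changed no call there. The other groups checked with 3 or more shared numbers had at least 1 pair with r under 0.1, which cannot exclude pairing. Liraglutide and saline libraries of batch B share 2 numbers, and these pairs had r = 0.322 to 0.359. Not all combinations of groups were checked.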

Additional observations from a re-analysis of the deposited data

Results flagged for a closer look

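Of 90 combinations of clock gene and group with 4 to 10 libraries, 9 had a highest or lowest library far from the others by Dixon's test, where chance gives about 5%; the other 30 combinations were not tested for this. Of the 9, 5 were in libraries low in hypothalamus markers. Saline replicate 4 of batch B, among those, had 81.5 CPM of Per1 (next 33.7) and 57.1 CPM of Arntl (next 30.3). BWM replicate 1 had 176 CPM of Cry2 (next 98.5). Nr1d1 was highest in liraglutide replicate 4 at 113 CPM (next 86.9) and in sham replicate 10 of batch B at 88.0 CPM (next 76.0). The remaining 4 libraries were not low in hypothalamus markers. Nr1d1 was lowest in PYY3-36 + liraglutide replicate 10 of batch B at 70.5 CPM (next 82.9). Per2 was highest in PYY3-36 + liraglutide replicate 9 of batch B at 33.8 CPM (next 27.6), and Dbp in saline replicate 8 of batch B at 187 CPM (next 134). Clock was lowest in lean replicate 6 at 38.4 CPM (next 62.9).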

How the results depend on the processing

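For batch B vs. batch A, 3 clock genes were called under the alternatives run, except that a further limit on the absolute log2 fold change of 1 left 1 (Per3), and except within single groups, as reported. With each library left out in turn, all 3 were called in 43 of 43 fits, with ranges of -0.94 to -0.80 for Per1, -0.87 to -0.82 for Per2 and -1.29 to -1.23 for Per3. For RYGB vs. sham in batch A, where 0 were called, an additive model with group and batch called 1 (Per3, 0.51, edgeR adjusted p = 0.0457). A replicate block called 1 there (Clock, 0.29, edgeR adjusted p = 0.048). Whether these animals are paired is not known, and same-numbered libraries had r from -0.24 to 0.263. Leaving out each library gave 0 to 2, with 2 (Per3 and Clock) without RYGB replicate 11. For RYGB vs. sham in batch B, the additive model called 1 (Per3) and a fit of batch B on its own called 2 (Per3, 0.75, edgeR adjusted p = 0.00512, and Nr1d1, 0.32, 0.0281). The shares of all genes that these alternatives called for RYGB vs. sham are not given here. The replicate block changed no other call and could not be fitted for RYGB in batch B, whose numbers occur in no other group of that batch. The pairs of clock genes past the threshold in batch A, 4 as reported, were 2 with a pseudocount of 2, 2 with DESeq2 size factors and 1 without the libraries low in hypothalamus markers, which was none of the 4 (Per2 and Cry1). In batch B, 6 as reported, they were 0 without those libraries. The cause of these changes was not tested. Of clock gene values under alternatives, 3578 kept their call and, where called, their direction; 283 of them changed sign while not called. Between 3 and 11 libraries per group and batch limit what these comparisons can detect.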

Other observations

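Per1 and Cry2 were set side by side in the libraries low in hypothalamus markers and the others, as values only. Cry2 ranged from 108 to 176 CPM (median 131, n = 5) in the low libraries of batch A and from 70.9 to 143 CPM (median 94.8, n = 32) in the others. In batch B it ranged from 107 to 152 CPM (median 119, n = 7) and from 69.7 to 128 CPM (median 94.2, n = 21). Per1 ranged from 40.0 to 81.5 CPM (median 51.8) in the low libraries of batch B and from 24.6 to 50.7 CPM (median 32.2) in the others, and in batch A from 54.8 to 130 CPM (median 101) and from 49.9 to 146 CPM (median 72.6). The summed level of immediate early genes was highest in lean replicate 2 in batch A (1544 CPM) and in saline replicate 4 in batch B (968 CPM), both of them low libraries, with 130 and 81.5 CPM of Per1.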
